A study of Homo sapiens and Mus musculus with 16 samples.

Results

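The cytoplasm of day-20 neurons was compared with the cytoplasm of liver bud progenitors. The comparison used 4 of the 16 libraries of the series, 12 of which are human, and its libraries were taken by their labels, namely neuron cytoplasm (n = 2) and liver bud cytoplasm (n = 2). Both cell types were differentiated from the human embryonic stem (ES) cell line UCLA4, so they share a genome, and both carry LSM14A fused to GFP, which the study integrated at the AAVS1 locus. Per the study's methods, neurons were made through neural progenitors, first with CHIR99021, an inhibitor of TGF-beta receptors and a gamma-secretase inhibitor, and then in N2 and B27 medium with cAMP and vitamin C. The endoderm protocol of the same methods passes through primitive streak with activin A, CHIR99021 and FGF2 and definitive endoderm with activin A, and ends in BMP4, activin A and forskolin. No untreated or undifferentiated library of this line was analysed here, so each difference is between the 2 differentiated states. The labels give polyA RNA for both groups, which shared a library kit. Ribosomal RNA genes still took 20.4 to 24.9% of the counts, and how strictly polyA RNA was selected was not tested. Per the same methods, the cytoplasmic fraction was what pelleted from the lysate once nuclei had been spun out, taken up again in buffer before particles were sorted. It therefore lacks RNA that stayed in the supernatant, and it also holds the P-bodies, the LSM14A condensates that the study purified.

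Neurons and hepatic endoderm descend from ectoderm and endoderm, germ layers that part early in development. Neurons are known for long microtubule-filled processes, for excitability and synapses, and for a set of splicing regulators of their own. Hepatic progenitors form a polarised epithelium, joined by E-cadherin junctions and desmosomes. In it FOXA, GATA and HNF factors act on genes for secreted plasma proteins. The comparison asks which transcripts of each program were present in the fraction from which P-bodies were sorted.

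Counts were expressed as normalized CPM, counts scaled to a common total after TMM correction of the library sizes. Values are given for libraries 1 and 2 of a group, with neurons before liver bud progenitors unless a sentence names the groups. From the paragraph on epithelial genes to that on the LIN28 axis, the liver bud libraries come first unless neurons are named. As values were not divided by transcript length, a ranking of different genes ranks read counts and not RNA molecules. The libraries held 6368953 to 11474847 counts, with ribosomal RNA genes taking 20.4 to 24.9% of them, and a floor of 3 counts per library corresponded to 0.306 to 0.409 normalized CPM. The Spearman rho between replicates, across genes, was 0.966 for the neurons and 0.969 for the liver bud progenitors, whose counts differed by 6.69 and 5.41 in chi-square per gene, above sampling noise. The labels do not say whether the 2 libraries of a group came from separate cultures, so the p-values measure only the spread between these libraries.

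Of 21900 genes with a count in at least 1 of the 4 libraries, 5696 (26%) were higher in neurons and 5648 (25.8%) were higher in liver bud progenitors at an adjusted p under 0.05 by the quasi-likelihood test of edgeR. Genes called with at least 4-fold differences numbered 1910 (8.72%) in neurons and 2328 (10.6%) in liver bud progenitors. The split between directions depended on the scaling, as the median log2 difference over all genes was -0.16 with TMM and -0.52 with library size only, under which the neuronal side held 36.5% of the calls (50.2% by TMM). Calls were rarer among weakly expressed genes. Of 6199 genes with less than 1 normalized CPM in both groups, 1.13% were called in neurons and 3.5% in liver bud progenitors, whereas of 2490 genes with at least 100 normalized CPM in a group, 53.4% and 38.8% were called. Because these are bulk libraries, fewer cells of a type and less RNA per cell cannot be told apart.

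**Figure D1:**
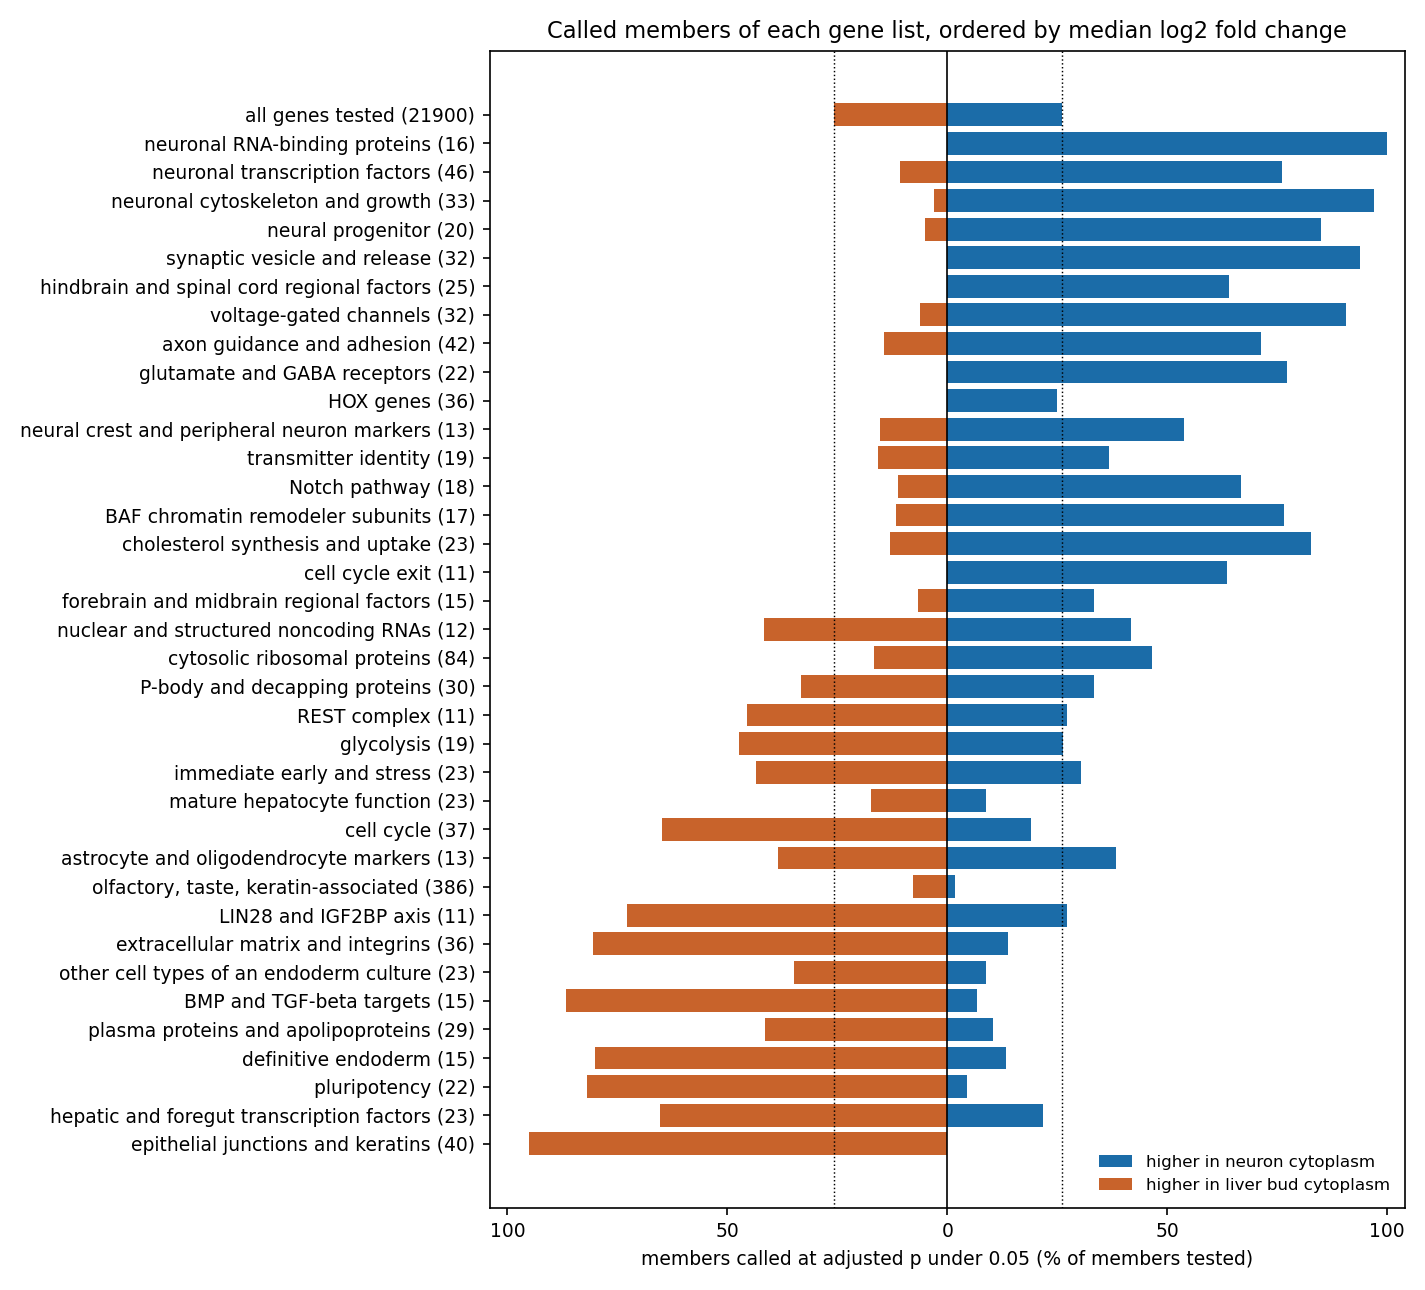
Bars give the percent of the tested members of each gene list that were called higher in neuron cytoplasm (right) or in liver bud cytoplasm (left), with the number tested in parentheses and dotted lines at the 26% and 25.8% of all genes. Lists of neuronal cytoskeleton, RNA-binding and synaptic genes fall almost wholly to the right, and epithelial, pluripotency and BMP target genes to the left.

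The cell types were first checked against their markers. In neurons the pan-neuronal markers TUBB3, DCX, MAP2 and STMN2 were all above 500 normalized CPM in both libraries. SNAP25, of the synaptic release machinery, and RBFOX3, the nuclear antigen of mature neurons, were lower, with 25.1 and 32.1 and with 8.05 and 8.42 normalized CPM. In liver bud progenitors HNF4A, GATA4, GATA6 and TBX3 were each between 24.8 and 40.1 normalized CPM, and each was at or below 0.432 in neurons. ALB, the albumin gene, had no count in either liver bud library, against 1 count in neurons, and AFP, the fetal counterpart of albumin, reached 7.09 and 6.98. HHEX and PROX1, factors that mark the early liver bud, were at 1.5 and 1.18 normalized CPM and at 11.6 and 9.46, and PROX1 was higher in neurons, at 67.5 and 60.3. The libraries labelled liver bud progenitors therefore held foregut and hepatic factors without albumin.

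**Figure D2:**
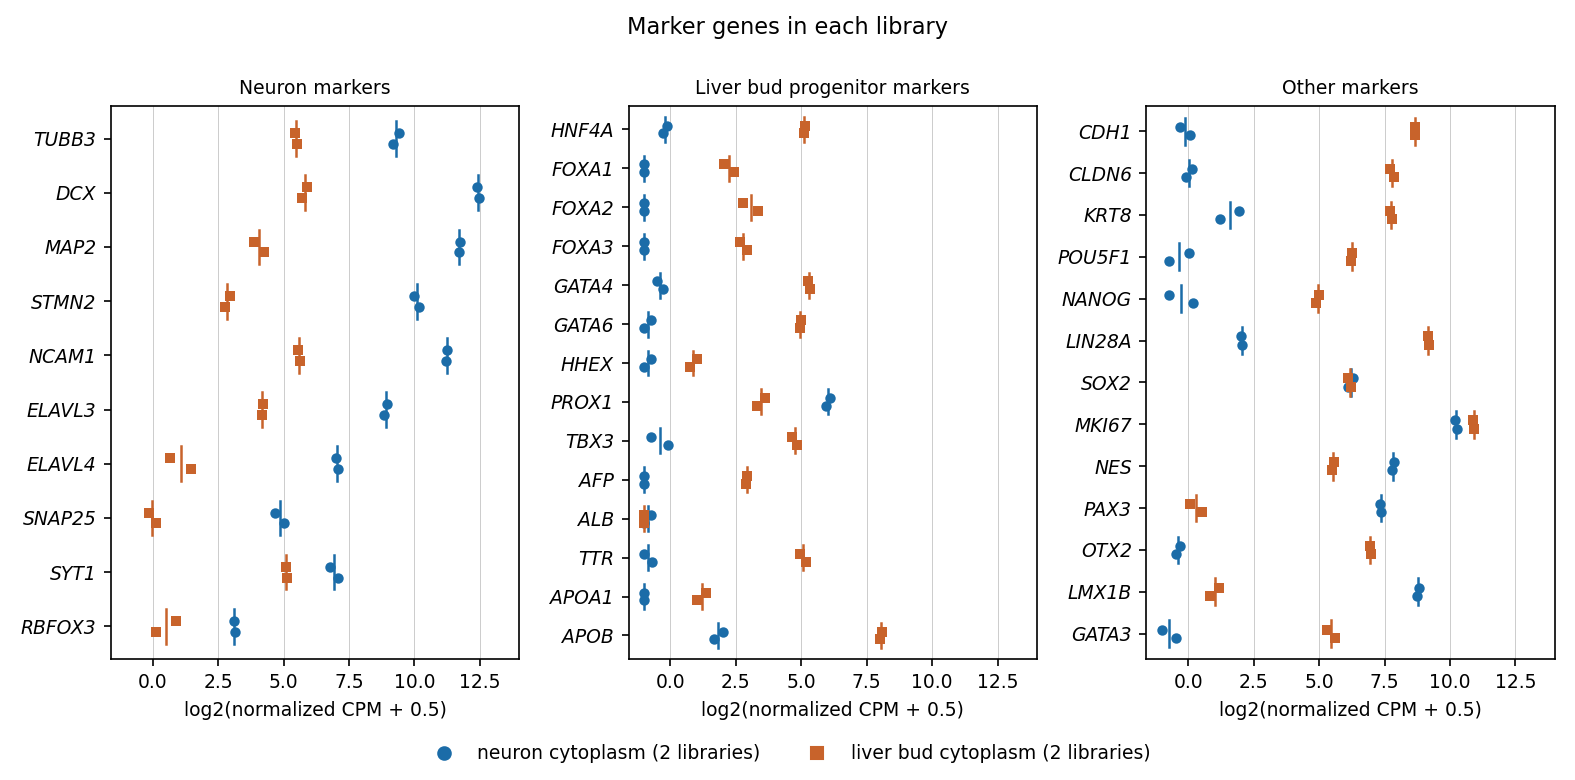
Each point is a library, on an axis of log2(normalized CPM + 0.5), with circles for neurons, squares for liver bud progenitors and vertical ticks at the group means. The groups overlap only for SOX2 and ALB, and PROX1 is the liver bud marker in which neurons are higher.

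Genes of the neuronal cytoskeleton and of neurite growth were higher in neurons almost without exception. Of 33 members 32 were called in neurons and 1 in liver bud progenitors, with a median log2 difference of 4.31 against -0.16 for all genes. DCX, which stabilises microtubules in migrating neurons (hg38, chrX:111293779-111412429, minus strand), had 5380 and 5590 normalized CPM in neurons and 59.2 and 52 in liver bud progenitors, a 98.7-fold difference (log2 6.63 ± 0.09 SE, adjusted p = 1.04e-66). MAP2, the dendritic microtubule protein (chr2:209424047-209734147, plus strand), was at 3440 and 3290 against 14.1 and 18.4. The neuron libraries stood far above the liver bud libraries for both genes, and replicates lay close together. MAP1B, an axonal microtubule protein, had among the highest values in the neurons, at 31000 and 32000 normalized CPM. It was also well detected in liver bud progenitors, at 2580 and 2550. The log2 differences of TUBA1A and TUBB3, the tubulins of young neurons, were 5.11 ± 0.08 and 3.86 ± 0.09, that of DPYSL5, a collapsin response mediator, 7.50 ± 0.11, and that of STMN2, a growth-cone phosphoprotein, 7.34 ± 0.11. The neurofilament subunits divided. NEFL was higher in neurons, at 1210 and 1220 normalized CPM against 60.4 and 62.1, and so was INA, at 892 and 975 against 15.3 and 18.1. NEFH, the heavy subunit that accumulates in mature axons, was the member in the other direction, at 4.59 and 4.86 against 21.7 and 21.4 (log2 -2.19 ± 0.23). KIF5A, a neuronal kinesin heavy chain, was at 847 and 870 against 29.1 and 28.5.

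Each of the 16 neuronal RNA-binding proteins was called higher in neurons, with a median log2 difference of 4.71. NOVA2, a splicing regulator of the nervous system, had the most reads, at 1230 and 1200 normalized CPM against 31 and 33.2. CELF3, another neuronal splicing factor, had the largest difference of the list (595 and 539 against 3.82 and 2.84, log2 7.42 ± 0.13). SRRM4, which drives the inclusion of neuronal microexons, was at 366 and 370 against 5.05 and 5.56. The ELAVL family, which binds AU-rich RNA, had differing read levels, with ELAVL3 at 491 and 463 in neurons, ELAVL4 at 129 and 134, and ELAVL2 at 31.9 and 38.7. PTBP2 exceeded its paralogue PTBP1, a repressor of neuronal exons, in neurons (101 and 103 against 71 and 63.2), and the order was reversed in liver bud progenitors (64.8 and 69.8 against 124 and 137). These values are read counts that were not divided by transcript length, so only the shift between cell types is a comparison. ESRP1 and ESRP2, splicing regulators of epithelia, were the counterpart in liver bud progenitors. ESRP1 had 221 and 220 normalized CPM there and 1.02 and 0.863 in neurons (log2 -7.85 ± 0.17), and ESRP2 had 43.8 and 53.8 against 0.102 and 0.108.

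Of 46 neuronal transcription factors tested, from 48 listed, 35 were called in neurons and 5 in liver bud progenitors (median log2 4.51). The repressors SCRT1 and SCRT2 were near the floor in liver bud progenitors, at 0.136 to 0.355 normalized CPM, and at 263 and 220 and at 164 and 155 in neurons (log2 9.51 ± 0.21 and 9.22 ± 0.23). MYT1L, which represses non-neuronal genes, had 128 and 112 against 0.136 and 0.355. TLX1, a homeodomain factor of hindbrain and spinal sensory neurons that was named for its fold (chr10:101131300-101137789, plus strand), had 246 and 232 against 0.136 and 0.473, a 722-fold difference. Proneural factors were also present, with NEUROG2 at 24.6 and 25.1 and NEUROD4 at 34.1 and 35.9 normalized CPM, each below 1 in liver bud progenitors. Factors of cortical projection neurons were not. TBR1, FEZF2 and NEUROD6 were at most 0.612 in any library. BCL11B was lower in neurons (11.1 and 11.5 against 21 and 22.2), and ISL1, a motor and sensory neuron factor that is also used in foregut mesenchyme, was at 0.306 and 0.216 against 8.73 and 8.16.

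Many regional factors of the hindbrain and spinal cord were higher in neurons. Of 25 tested 16 (64%) were called in neurons and 0 in liver bud progenitors (median log2 3.14), beside 26% and 25.8% of all genes. Of 15 forebrain and midbrain factors 5 (33.3%) and 1 were called, a share in neurons not far from that of all genes, and the difference between the lists was not tested. With a minimum of 20 CPM in the higher group, added after seeing the data, the neuron counts were 5 and 3. LMX1B, of midbrain and hindbrain monoaminergic and of dorsal spinal neurons (chr9:126613928-126701032, plus strand), had 448 and 424 normalized CPM against 1.77 and 1.3. PAX2 and PAX8 were also called in neurons, at 67.1 and 58.2 and at 37 and 34.5 in neurons. LHX2, of the forebrain and of dorsal spinal interneurons, was at 20.2 and 17.1 and had no count in liver bud progenitors, at least 48.7-fold. OTX2, of forebrain and midbrain but also of anterior endoderm, was at the floor in neurons (0.306 and 0.216) and at 122 and 126 in liver bud progenitors (chr14:56799905-56816693, minus strand, log2 -8.81 ± 0.24). The dorsal and crest-associated factors PAX3 (161 and 165 against 0.546 and 0.946), ZIC1 (109 and 103 against 0.273 and 0.237) and DRGX (91.3 and 93 against 0.546 and 0.237) were also higher in neurons. Of 13 neural crest and peripheral neuron markers 7 (53.8%) were called in neurons and 2 (15.4%) in liver bud progenitors, the latter 1 when any library was left out. PRPH, the peripheral intermediate filament, was at 7.64 and 6.48 against 0.273 and 0.118.

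HOX genes give a finer scale along the same axis, since their order in a cluster follows the body from hindbrain to tail. Of 36 HOX genes tested, from 39 in the table, 9 (25%) were called in neurons and 0 in liver bud progenitors. The share in neurons is close to the 26% of all genes. The count in neurons was 5 with a mean minimum of 1 CPM, which tests fewer genes. Summed over paralogues, group 2 had 154 and 157 normalized CPM in neurons and 0.682 and 0.355 in liver bud progenitors, and group 3 had 81.3 and 73.2 against 1.09 and 0.591. Group 1 was lower, at 6.73 and 7.23, group 4 was at 2.65 and 2.91, and group 5 at 2.04 and 0.54. From group 6 to group 13 no sum exceeded 0.815 in neurons or 1.3 in liver bud progenitors, and no gene was called. HOXA2, which patterns the second pharyngeal arch and anterior hindbrain, made up most of group 2 (147 and 148 against 0.546 and 0.118, log2 8.80 ± 0.23). HOXB3 (62.4 and 53.6) and HOXA3 (17.2 and 17.7) made up most of group 3. Levels above 10 normalized CPM were thus found for paralogue groups 2 and 3 alone, in both neuron libraries.

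**Figure D3:**
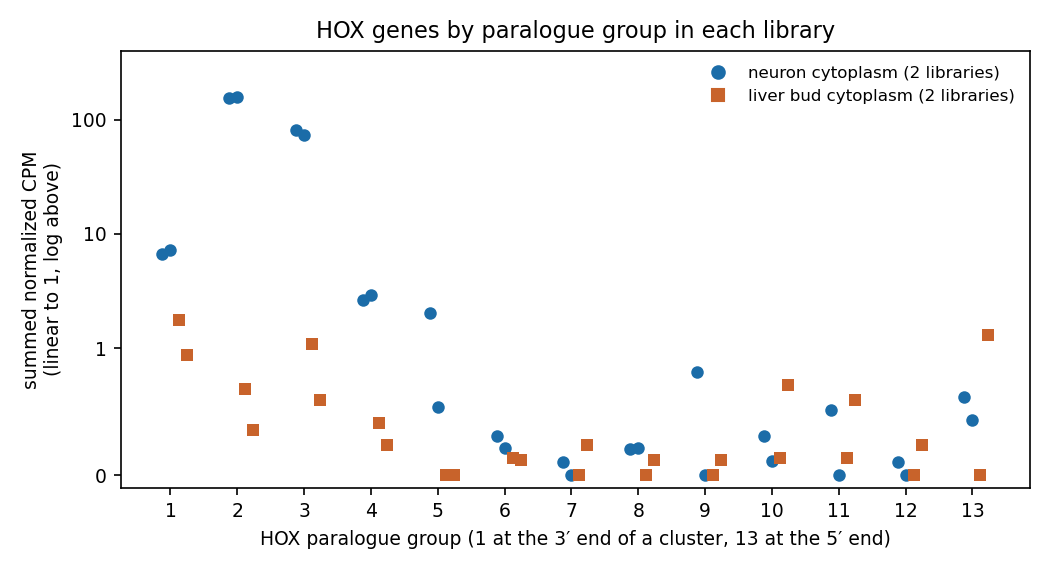
Summed normalized CPM of the HOX genes of each paralogue group, in each library, on an axis that is linear up to 1 and logarithmic above. Groups 2 and 3 stand at 73.2 to 157 in neurons, and groups 6 to 13 are at or near 0 in both cell types.

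Synaptic, receptor and channel genes were broadly higher in neurons. Of 32 genes of synaptic vesicles and release 30 were called in neurons and 0 in liver bud progenitors (median log2 3.28). The scaffolds of the active zone PCLO (787 and 833 against 118 and 121) and BSN (447 and 400 against 16.4 and 20.1) had among the most reads of them. SYT1, the calcium sensor of release, differed less, at 108 and 134 against 33.3 and 34.9. Of 32 voltage-gated channel genes 29 and 2 were called, the 2 becoming 1 without liver bud library 1. SCN3A, the sodium channel of immature neurons, was at 222 and 229 against 1.91 and 2.6. SCN2A was lower, at 76.6 and 82. Of 22 glutamate and GABA receptor genes tested, from 24 listed, 17 and 0 were called, led in level by GRIN2B, an NMDA receptor subunit of young neurons (log2 2.57 ± 0.09), and by the kainate receptor GRIK3 (196 and 193 against 16.9 and 16). The AMPA receptor genes GRIA1 and GRIA4 were each at 64.1 to 69 in neurons and at most 1.5 in liver bud progenitors.

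Genes of several transmitters were detected in the neuron libraries, at low levels. Of 19 transmitter genes tested, from 21 listed, 7 (36.8%) were called in neurons and 3 (15.8%) in liver bud progenitors, beside 26% and 25.8% of all genes. With a minimum of 20 CPM in the higher group, added after seeing the data, the counts were 2 and 0. SLC17A6, the vesicular glutamate transporter of hindbrain and spinal neurons, was the highest, at 56 and 56.6 normalized CPM against 0.682 and 0.473 (log2 6.59 ± 0.27). The glycine transporter SLC6A5 was at 28.9 and 27.2, the dopamine-synthesis enzyme TH at 21.8 and 16.5, and the GABA and glycine vesicular transporter SLC32A1 at 12.1 and 7.88. Both TH and SLC32A1 had 0 and 0.118 normalized CPM in liver bud progenitors. SLC6A4, the serotonin transporter, went the other way, at 0.204 and 0.54 in neurons and 15.6 and 19.2 in liver bud progenitors. The transcripts of glutamatergic, glycinergic, GABAergic and catecholaminergic neurons were counted in the same bulk libraries, so whether they came from the same cells cannot be told apart.

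Of 42 axon guidance and adhesion genes 30 were called in neurons and 6 in liver bud progenitors (median log2 2.30). NCAM1 and L1CAM, adhesion molecules of axons, were at 2430 and 2370 against 46.3 and 49 and at 1640 and 1450 against 27.8 and 29.1. CNTN2, an axonal surface protein of early projecting neurons (chr1:205042937-205078289, plus strand), was at 749 and 736 against 3 and 2.48 (log2 8.08 ± 0.13). Receptors that steer commissural axons at the midline were among the highest, with DCC, the netrin receptor, at 658 and 662 against 4.23 and 3.67 and ROBO3 at 699 and 622 against 12.8 and 12.7. CDH2, N-cadherin, differed little (450 and 446 against 270 and 275). SEMA6A was among the 6 higher in liver bud progenitors, at 451 and 449 there against 181 and 192 in neurons. Of 53 clustered protocadherins, which give neurons surface identities, 31 (58.5%) and 8 (15.1%) were called, beside 26% and 25.8% of all genes. With a minimum of 20 CPM in the higher group, added after seeing the data, the protocadherin counts were 20 and 1. PCDHGC4 had 55.9 and 48.7 against 0.546 and 0.946. Further genes that had the smallest p-values among those higher in neurons were SEPTIN3, a brain septin (2100 and 2040 against 39.7 and 42.7), the giant cadherin FAT4 (1450 and 1560 against 21 and 19.8), the homeodomain factor MEIS2 (957 and 960 against 8.46 and 7.69) and ZFHX4 (2540 and 2710 against 62.9 and 67.9).

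Genes of neural progenitors and of dividing cells were detected in the neuron libraries. Of 20 neural progenitor genes 17 were called in neurons and 1 in liver bud progenitors (median log2 3.46). NES, the intermediate filament of neural stem cells, was at 231 and 217 against 47.5 and 44.8, and PAX6 at 90.7 and 100 against 4.5 and 4.38. SOX2, shared by neural progenitors and pluripotent cells, was at 77.7 and 68.9 against 68.8 and 73.8 (log2 0.04 ± 0.11, adjusted p = 0.789), a null result that turned to -0.35 under library size scaling. MKI67, a marker of proliferating cells, was detected in both cell types, at 1170 and 1220 in neurons and 1890 and 1930 in liver bud progenitors. Of 37 cell cycle genes 7 were called in neurons and 24 in liver bud progenitors (median log2 -0.84), the mitotic kinesin CENPE by log2 -2.63 ± 0.09 and the replication helicase subunit MCM7 in the other direction by 0.83 ± 0.09. CDK5R1 and CDK5R2, which activate CDK5 in postmitotic neurons, were at 110 and 96.5 and at 24.9 and 28.8 in neurons and at most 4.38 in liver bud progenitors. Of 18 Notch pathway genes 12 (66.7%) and 2 (11.1%) were called. Among them were the receptor NOTCH1 (297 and 253 against 63.7 and 78.6) and the ligand DLL1, whose neuron replicates lay apart at 77.4 and 36.4 against 6.55 and 8.16. Glial markers did not move together, as 5 and 5 of 13 tested (38.5% each) were called, beside 26% and 25.8% of all genes. The astrocytic glutamate transporter SLC1A2 was at 182 and 208 against 6.41 and 4.73, GFAP was at 9.07 and 9.71 against 2.87 and 3.07, and SOX10, the oligodendrocyte and crest factor, had 0 counts in neurons and was at least 17.1-fold higher in liver bud progenitors (6 and 4.73), taking 3 counts per library as the floor.

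In liver bud progenitors the epithelial genes stood out. Of 40 genes of junctions and keratins 38 were called in liver bud progenitors and 0 in neurons, with a median log2 difference of -5.89. DSP, the desmosome plaque protein (chr6:7541338-7586714, plus strand), had 912 and 919 normalized CPM there and 1.02 and 1.73 in neurons (665-fold, log2 -9.38 ± 0.14, adjusted p = 9.65e-63). CDH1, E-cadherin (chr16:68737292-68835537, plus strand), had 409 and 404 against 0.306 and 0.54 (log2 -9.87 ± 0.17), so that neurons were near the floor of counting. The tight junction gene CLDN6 was at 210 and 229 against 0.612 and 0.432, the simple-epithelium keratin KRT8 at 206 and 221 against 3.36 and 1.83, and the epithelial factor GRHL2 at 117 and 112 against 1.22 and 0.54. TJP1, a scaffold that neurons also use, differed least among these, at 931 and 892 against 331 and 321. ERBB3, a receptor tyrosine kinase (77.4 and 74.3 against 0.306 and 0.108), and DUOX2, an oxidase of epithelia (54.3 and 58.5 against 0.102 and 0), were among the genes with the largest folds. GJA1, the gap junction protein connexin 43, was at 462 and 454 against 8.46 and 4.64.

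Of 36 genes of the extracellular matrix and its integrin receptors 29 were called in liver bud progenitors and 5 in neurons (median log2 -2.25). FN1, fibronectin (chr2:215360440-215436073, minus strand), had the most reads, at 6140 and 6480 normalized CPM against 341 and 363 (log2 -4.17 ± 0.07). The basement membrane genes followed, with the perlecan gene HSPG2 at 1170 and 1300 against 109 and 91.6, the laminin chain LAMB1 at 186 and 189 against 8.97 and 6.04, and the collagen IV chain COL4A1 at 262 and 259 against 25.3 and 25. Among all 44 collagens, 24 (54.5%) were called in liver bud progenitors and 4 (9.09%) in neurons, beside 25.8% and 26% of all genes. The integrin chain ITGB8 was in the neuronal direction, at 105 and 114 in neurons against 15.7 and 13.7 in liver bud progenitors.

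The hepatic and foregut transcription factors fell mostly to the liver bud side. Of 23 tested 15 (65.2%) were called in liver bud progenitors and 5 (21.7%) in neurons, beside 25.8% and 26% of all genes. The share in neurons was thus below that of all genes. HNF4A, the hepatocyte nuclear factor (chr20:44355699-44432845, plus strand), had 34.8 and 33.4 normalized CPM against 0.408 and 0.324 (log2 -6.48 ± 0.31). GATA4 had 38.1 and 40.1 against 0.204 and 0.324, and GATA6 30.8 and 30.3 against 0.102 and 0. The pioneer factors FOXA1, FOXA2 and FOXA3 had no count in either neuron library and were low in liver bud progenitors, at 3.68 and 4.85, 6.41 and 9.7, and 5.73 and 7.1, at least 13.6-fold, 25.6-fold and 20.4-fold higher against the floor of 3 counts per library. The 5 factors in the neuronal direction are known from neural tissue as well as from liver. They were ONECUT2 (137 and 141 against 10.4 and 12.4), ONECUT1 (57.7 and 55.1 against 3.27 and 4.14), SOX9 (103 and 84.5 against 9.01 and 5.91), NR2F2 (74.4 and 89.4 against 10.4 and 11.5) and PROX1. LINC00261, a long noncoding RNA next to FOXA2, was at 87.5 and 82.5 in liver bud progenitors and had 1 count in the neuron libraries together.

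Of 29 plasma protein genes tested, from 32 listed, 12 were called in liver bud progenitors and 3 in neurons (median log2 -2.78). APOB, the structural protein of low-density lipoprotein, had by far the most reads, at 269 and 255 normalized CPM against 3.47 and 2.7 (log2 -6.40 ± 0.14). TTR, the transthyretin gene, was at 30.3 and 35.6, APOE at 21.8 and 23.9, and the fibrinogen chain FGB at 9.55 and 10.4 against no count in neurons, at least 31.7-fold. AFP and APOA2 also had no count in neurons and were at least 22.4-fold and 17-fold higher in liver bud progenitors. Of 23 genes of mature hepatocyte function tested, from 26 listed, 4 (17.4%) were called in liver bud progenitors and 2 (8.7%) in neurons, below the 25.8% and 26% of all genes. The 4 became 2 without liver bud library 2, and the 2 became 1 without neuron library 2 or either liver bud library. CPS1, of the urea cycle, was at 49.8 and 37.4 in liver bud progenitors against 21.4 and 17.1 in neurons. Secretory liver transcripts were thus present in part, and those of mature metabolism were mostly near the floor. As a background for such low calls, 386 olfactory, taste, keratin-associated and defensin genes, which neither cell type is known to use, summed to 65.4 and 59.4 normalized CPM in neurons and 141 and 137 in liver bud progenitors, and 7 were called in neurons and 30 in liver bud progenitors. Without liver bud library 1 or 2 the latter were 15 and 13, and the former were 3 without either of these and 4 without neuron library 1. The part of this background in the low hepatic calls was not tested.

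Transcripts of earlier endoderm and of pluripotent cells were also higher in liver bud progenitors. Of 15 definitive endoderm genes 12 were called there and 2 in neurons (median log2 -3.67). CER1, a secreted inhibitor of anterior endoderm, was at 52.9 and 59.8 against 0 and 0.54, and EOMES at 15 and 14 against 0 and 0.971. CXCR4, a common surface marker of definitive endoderm, was higher in neurons, at 192 and 220 against 50.8 and 47.8. Of 22 pluripotency genes tested, from 23 listed, 18 were called in liver bud progenitors and 1 in neurons (median log2 -4.05). POU5F1 was at 75.9 and 74.3 against 0.51 and 0.108, NANOG at 31.4 and 28.9 against 0.102 and 0.648, and TDGF1, an embryonic growth factor co-receptor, at 113 and 102 against 0.306 and 0.432. Markers of other cells that an endoderm culture can hold were fewer, with 8 of 23 tested (34.8%) called in liver bud progenitors and 2 (8.7%) in neurons. The shares of all genes were 25.8% and 26%. The 2 became 1 without neuron library 1 or either liver bud library. Among the 8 were TAGLN, of smooth muscle (196 and 212 against 11.5 and 9.93), and GATA3 (38.7 and 48.8 against 0 and 0.216). The blood marker PTPRC and the endothelial marker PECAM1 were not called, and no library exceeded 0.815 and 0.828 normalized CPM for them. Of 15 targets of BMP and TGF-beta 13 were called in liver bud progenitors and 1 in neurons, with BAMBI, a pseudoreceptor that BMP induces, at 15.8 and 15.7 against 0.408 and 0.432.

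The LIN28 axis, which holds back let-7 maturation in early embryonic cells, was higher in liver bud progenitors for 8 of 11 genes and in neurons for 3. LIN28A (chr1:26410817-26429728, plus strand) had 571 and 580 normalized CPM against 3.57 and 3.67 (log2 -7.31 ± 0.12), and LIN28B 136 and 131 against 12 and 10. TRIM71, a let-7 target and RNA-binding ubiquitin ligase (chr3:32817997-32897824, plus strand), had 578 and 615 against 17.9 and 19.1 (log2 -5.01 ± 0.10), and HMGA2, another let-7 target, 271 and 238 against 18 and 17.2. L1TD1, an RNA-binding protein of pluripotent cells, was at 442 and 419 against 1.53 and 1.83. IGF2, the fetal growth factor, was opposite, at 11.3 and 14.1 in liver bud progenitors against 71 and 70.6 in neurons.

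Host transcripts of several microRNAs were higher in neurons. Apart from MIR124-2HG, which the fold rule named, they were chosen after their values were seen. MIR124-2HG, a host of miR-124, had 187 and 141 normalized CPM against 0.409 and 0.237 (log2 8.95 ± 0.24). MIR100HG (chr11:122028325-122556721, minus strand) had 72.2 and 79.4 against 1.36 and 1.18, MIR99AHG (chr21:15928296-16646364, plus strand) 39.3 and 37.1 against 0.546 and 0.473, and MIR9-3HG (chr15:89361579-89424983, plus strand) 24.9 and 26 against 0.409 and 0.473. The groups did not overlap for any of the 4, which the choice by value made likely. Of all 21900 genes, 7501 were higher in both neuron libraries and 8397 in both liver bud libraries. The mature sequences encoded in MIR100HG, MIR99AHG and MIR9-3HG (RefSeq, GRCh38.p14), shown because both clusters encode a let-7 member and are set beside the LIN28 axis, are given 5′ to 3′ with the seed, bases 2 to 8, in capitals.
let-7a-5p in MIR100HG: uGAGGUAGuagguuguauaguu
let-7c-5p in MIR99AHG: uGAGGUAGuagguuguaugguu
miR-100-5p in MIR100HG: aACCCGUAgauccgaacuugug
miR-99a-5p in MIR99AHG: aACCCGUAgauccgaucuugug
miR-125b-5p in both hosts: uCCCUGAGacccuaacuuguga
miR-9-5p in MIR9-3HG: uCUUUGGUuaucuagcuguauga
The first pair shares the let-7 seed and the second pair shares another, so the clusters on chromosomes 11 and 21 hold the same 3 seeds. Mature microRNAs are too short for these libraries and were not measured, and the counts are those of the host RNA alone.

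REST, which represses neuronal genes in other tissues (chr4:56907876-56966808, plus strand), was at 27.9 and 31.5 normalized CPM in neurons and 300 and 289 in liver bud progenitors (log2 -3.31 ± 0.10). Of its co-repressors, RCOR1 was at 34.2 and 35.9 against 134 and 131 and RCOR2, the neural paralogue, at 114 and 107 against 20.5 and 21.4. Over the 11 genes listed for the REST complex the median log2 difference was -0.17, beside -0.16 for all genes. The letters TTCAGCACC, the left part of the REST motif, were searched on both strands in the 250 bases before each gene start. They were found in 0.3% of 27305 promoters in the RefSeq table, in 0.254% of 9436 promoters of genes with at least 5 normalized CPM, in 0.726% (8 of 1102) of those called at least 4-fold higher in neurons and in 0.204% (2 of 982) of those called so in liver bud progenitors. These counts are a description and carry no test. Of the 8, which were named after their values were seen, 4 with known roles in neurons are shown as examples of a match and its surroundings, with the matching letters in capitals (RefSeq, GRCh38.p14, written on the strand of the gene). Their direction was fixed by that choice, and a link to the level of REST was not tested. SYN1, a phosphoprotein of synaptic vesicles, had 35.4 and 28.6 against 5.46 and 5.68. CELSR3, a cadherin of axon tracts, had 374 and 336 against 40.7 and 43.3. KCNK3, a leak potassium channel, had 25.9 and 29 against 0.273 and 0.591, and UNC80, a subunit of the sodium leak channel complex, 68.1 and 55.1 against 1.64 and 3.07.
SYN1, chrX:47620067-47620105, minus strand: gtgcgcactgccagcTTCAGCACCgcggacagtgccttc
CELSR3, chr3:48663011-48663049, minus strand: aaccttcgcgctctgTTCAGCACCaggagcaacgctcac
KCNK3, chr2:26692676-26692714, plus strand: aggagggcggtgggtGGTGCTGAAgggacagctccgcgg
UNC80, chr2:209771770-209771808, plus strand: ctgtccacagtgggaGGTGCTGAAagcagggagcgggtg

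Motifs of the endoderm factors were looked for in the same way. TGTTTAC, the core of the FOXA motif, was in 1.27% of promoters of the genes at least 4-fold higher in neurons and 2.14% of those in liver bud progenitors, against 1.76% of promoters of genes with at least 5 normalized CPM. GTTAATNAT, a form of the HNF1 motif, was in 0.454% and 0.509%, against 0.307%. AFP and APOA2, which had no count in neurons, were picked as examples with a match, an HNF1 match in AFP and a FOXA match in APOA2, in capitals. Their match and direction were fixed by that choice, and a link to the levels of these factors was not tested.
AFP, chr4:73436074-73436112, plus strand: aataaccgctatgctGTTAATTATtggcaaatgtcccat
APOA2, chr1:161223649-161223685, minus strand: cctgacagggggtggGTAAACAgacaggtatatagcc

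Switches between paralogues were followed in 38 pairs of a general form and a form known from neurons. The log2 ratio of the neuronal to the general form was taken within each library with 0.5 normalized CPM added to both. It was higher in both neuron libraries than in both liver bud libraries for 35 pairs, lower for 2 and overlapping for 1, and the median shift was 3.95. Among single genes, 7501 of the 21900 tested were higher in both neuron libraries and 8397 in both liver bud libraries. The pairs were chosen for a form known from neurons, with earlier results of these data known. Their direction was therefore partly set by that choice. In 19 pairs the general form was called in liver bud progenitors and the neuronal form in neurons, and in 10 both forms were called in neurons. The cadherins CDH1 and CDH2 shifted most, from -0.58 ± 0.03 (SD, n = 2) in liver bud progenitors to 8.94 ± 0.27 in neurons. Most of this shift was in CDH1, which had 3 and 5 counts in neurons, while CDH2 differed by a log2 of 0.72. Such low counts make the size depend on the added value. With 2 normalized CPM added, the cadherin shift was 8.11 rather than 9.51, and all 38 pairs kept the sign of their shift. SNAP25 over SNAP23, the SNARE proteins of neurons and of other cells, shifted by 7.21, or by 5.65 with 2 normalized CPM added. In the BAF remodeler, ACTL6B over ACTL6A shifted by 6.82, or by 5.16 with 2 normalized CPM added. ACTL6B was at 61.2 and 58.4 against 0.273 and 0.118 while ACTL6A was at 14.9 and 16.2 against 21 and 19.6. TUBA1A over TUBA1C shifted by 7.18, and these genes overlap on opposite strands, so without a stated strand setting their shared reads cannot be told apart. The glucose transporter pair was the largest exception, because SLC2A3, listed as the neuronal form, was at 1050 and 1010 in liver bud progenitors and 28.8 and 33.8 in neurons, and SLC2A2 was below 1 throughout.

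**Figure D4:**
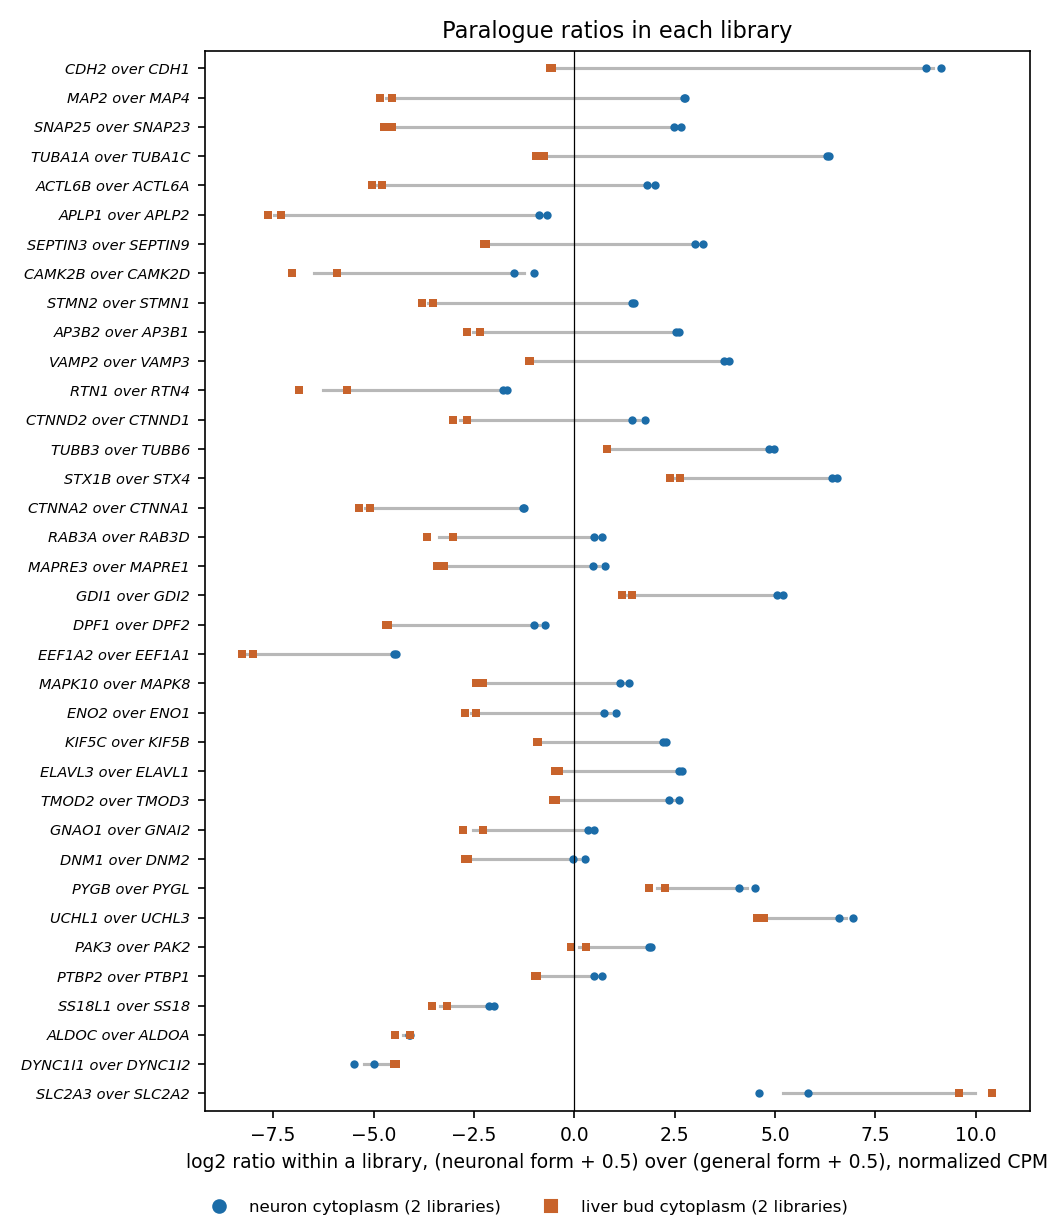
Each row is a pair of paralogues and each point the log2 ratio within a library of the form known from neurons to the general form, with 0.5 normalized CPM added to both and grey lines joining the group means. The neuron circles lie to the right of the liver bud squares in 33 of the 36 rows drawn, by up to 9.51, and SLC2A3 over SLC2A2 is the widest exception.

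Broad metabolic and housekeeping lists differed by less. Of 23 genes of cholesterol synthesis and uptake 19 were called in neurons and 3 in liver bud progenitors (median log2 1.28, the 3 becoming 1 without liver bud library 2), with HMGCS1 at 162 and 178 against 41.6 and 36.7 and the regulator SREBF2 at 569 and 549 against 171 and 182. Of 17 BAF subunits 13 and 2 were called, with the neuronal subunit DPF1 at 95.1 and 79.8 against 2.46 and 2.72. Glycolysis genes were called 5 and 9 of 19 times (26.3% and 47.4%), and kinesins 11 and 15 of 39 (28.2% and 38.5%), beside 26% and 25.8% of all genes. Of 84 cytosolic ribosomal protein genes 39 were called in neurons and 14 in liver bud progenitors at a median of 0.24, which was -0.14 under scaling by library size, with 17 and 31 called, so their direction rested on the scaling. Without liver bud library 1 the 14 became 9. Among 30 P-body and decapping proteins 10 and 10 (33.3% each) were called. LSM14A itself was at 151 and 162 in neurons and 1350 and 1440 in liver bud progenitors (log2 -3.16 ± 0.08), where the GFP-tagged and the native copy cannot be told apart, and DCP2, the decapping enzyme, was at 18.2 and 20 against 177 and 169. Noncoding RNAs went both ways, with NEAT1, of paraspeckles, at 31.6 and 30 against 794 and 796 and RN7SK, a regulator of transcription elongation, at 6840 and 6780 against 980 and 1130. Of 18 ribosomal RNA copies tested 12 and 6 were called, but RNA45SN3 (0 and 0 against 425 and 554) and its near-identical copies share reads, so their single values are uncertain.

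The calls followed the GC content of the transcript, which bears most on small differences. Over 14306 genes that averaged 1 normalized CPM or more and had a transcript in GENCODE 44, the share called in neurons rose from 13.5% in the quintile of lowest GC to 56% in that of highest GC, and the share called in liver bud progenitors fell from 64.2% to 16.5%. Differences between replicates also followed GC, with a Spearman rho across genes of 0.302 between the neuron and -0.257 between the liver bud libraries. After the trend with GC was removed from each library, the shares ranged from 32.8 to 35.2% in neurons and 32.2 to 34.3% in liver bud progenitors. Of the 11344 calls 8675 kept their call and direction and 332 were called in the other direction, while of the 4238 calls of at least 4-fold 4039 kept theirs. DCX, DSP, CDH1, HNF4A, LIN28A, REST and APOB kept their direction and their call, and the cytoskeletal and epithelial medians became 3.92 and -6.15. Over all genes, 1705 that had no call gained a call. Lists with small differences lost or gained calls. Cholesterol genes were then called 14 and 1 of 23 times and ribosomal protein genes 30 and 17 of 84. P-body proteins were called 11 and 6 of 30 times, glycolysis genes 5 and 12 of 19, and kinesins 13 and 17 of 39. GAPDH, at a log2 of 0.68, came to 0.02, and KIF5B, at -0.82, came to -0.03. AGRN, a matrix proteoglycan called in neurons at 0.91, came to -0.27. Whether the trend belongs to the cells or to the libraries cannot be told apart.

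**Figure D5:**
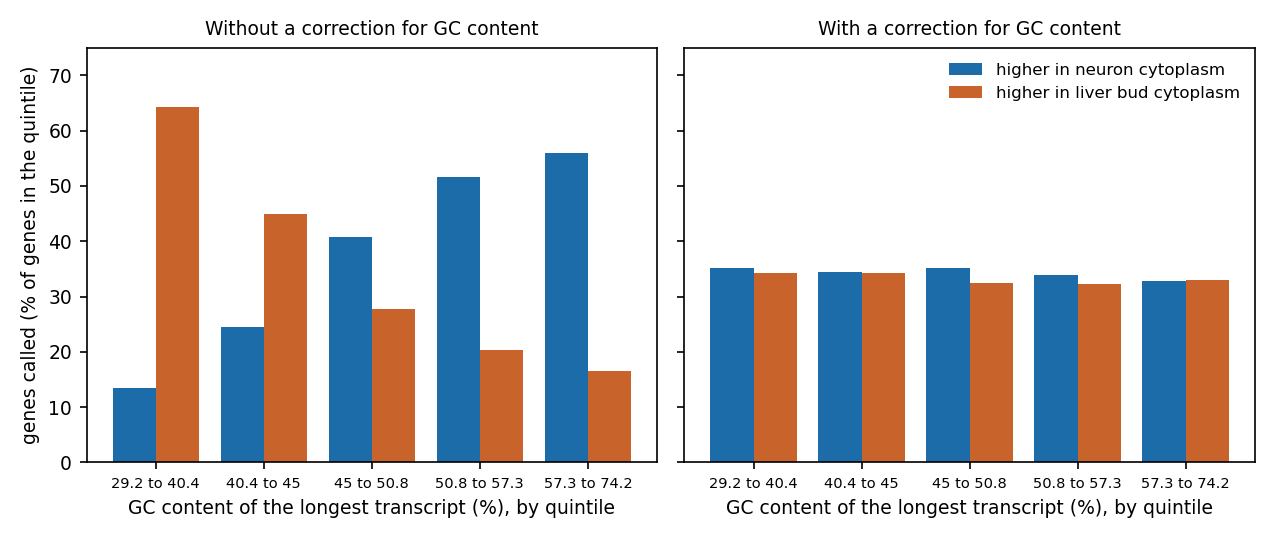
Bars give the percent of genes called higher in neuron cytoplasm and in liver bud cytoplasm by quintile of transcript GC content, without (left) and with (right) removal of the GC trend of each library, over 14306 genes. On the left the neuron share climbs from 13.5 to 56%, and on the right both shares are level.

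The calls did not follow gene length in 1 direction. Over the same 14306 genes the Spearman rho of the log2 difference with gene length was -0.0699. Of genes under 10 kb, 41.5% were called in neurons against 22.6% in liver bud progenitors. For genes of 10 to 30 kb the shares were 38.1% and 30.5%. The order turned for genes of 30 to 100 kb (32.2% and 42%) and of 100 to 300 kb (36.1% and 42.2%). Of 772 genes over 300 kb, 52.2% were called in neurons and 28.1% in liver bud progenitors. With at least 4-fold differences these shares were 29.1% and 11%. RBFOX1, a splicing factor whose gene spans chr16:5239802-7713340 (plus strand), was among these, at 62.8 and 57.1 against 0.136 and 1.06. The bins are descriptive, since genes are not independent replicates.

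The same genes were then looked up in the sorted P-bodies of these cells, which are separate libraries (n = 2 per cell type). Per the study's methods these particles were sorted from the cytoplasmic fraction, so their calls are not independent of those in cytoplasm. There 22166 genes were tested, of which 4084 (18.4%) were called on the neuronal and 5028 (22.7%) on the liver bud side. Of 1898 genes at least 4-fold higher in neuron cytoplasm that were tested in P-bodies, 1502 (79.1%) had the same call there and 3 the opposite, and of 2321 at least 4-fold higher in liver bud cytoplasm 1407 (60.6%) and 23 did. MAP2 differed in P-bodies by a log2 of 7.71, DCX by 4.90 and NEFH, opposite to its list in cytoplasm, by -0.67. Whether the shares differed between directions was not tested.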

How the data were processed

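RNA of the cytoplasm was counted in 2 libraries of day-20 neurons and 2 of liver bud progenitors. The human table deposited by the authors holds raw counts for 22286 gene symbols in each library, without those under 10 reads over all samples. Per the labels, the builds were hg38 and mm10 and DESeq2 was among the tools. The study's methods describe salmon for snapTotal-seq and hisat2 with featureCounts for Smart-seq, and which of them made these columns, and with which strand setting, is not given in the sources used here. Reads of near-identical or overlapping genes may therefore have been divided among them.

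Groups were taken from the labels, and the members of the comparison, the gene lists, the paralogue pairs and the rules were chosen with earlier results of these data known. Genes with 0 counts in all 4 libraries were left out. The groups were compared two-sided in edgeR 4.0.16 (R 4.3.3) by its quasi-likelihood F-test, with TMM normalization and no covariate, and a gene was called where the Benjamini-Hochberg adjusted p over 21900 genes was under 0.05. Depth was 6368953 to 11474847 counts, and 3 counts per library were taken as the floor, which covers counting error only, since without molecular identifiers reads are not separate molecules. Besides list and pair members, the rule named per direction the 12 smallest p-values among genes averaging 20 CPM or more in the higher group, and the 8 largest folds with at least 50 CPM in each higher library. Positions, lengths and GC content came from GENCODE 44, which held 92.5% of the symbols, and sequences from RefSeq (GRCh38.p14). On simulated counts for this comparison (21603 genes, 200 changed), 89% of 2-fold and 99% of 3-fold changes were recovered, with 15 false calls. The simulation changed few genes, equally in both directions, and held no GC trend. It therefore does not give the error rate of the real comparison. DESeq2 1.42.0, other scalings and filters, a fit with 8 or 12 libraries, thinning, a replicate block and leaving out each library were alternatives. A GC correction (lowess, span 0.3), the block with it, crossed numbers and a minimum of 20 CPM were added after seeing the data. Sex-linked genes were not used to infer the sex of the cells, and genes on chromosome X such as DCX were kept in the comparison. The tables of the authors' comparisons between P-bodies and cytoplasm, which hold log2 fold changes and p-values, were not used. Some genes are not reported here.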

Additional observations from a re-analysis of the deposited data

Results flagged for a closer look

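For GAPDH, a glycolytic enzyme, the direction differed between fractions. In cytoplasm it was higher in both neuron libraries, by a log2 of 0.68, and in P-bodies both neuron libraries were below both liver bud libraries, by -0.11. The difference between fractions was not tested, and with the GC correction the cytoplasmic value was 0.02.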

How the results depend on the processing

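The counts over all genes stayed within 1.5 times of those reported under each alternative but 1. With a minimum of 20 CPM in the higher group, added after seeing the data, which tests fewer genes, the neuronal side had 3578 genes and the liver bud side 2925, of which 1030 and 770 had at least 4-fold differences. Counts of list members moved more. Of the 72 in the text, 29 moved by over 1.5 times with this minimum, 10 with library size only, 8 with the GC correction and 9 when a library was left out, while 53 stayed within 1.5 times under every alternative but the minimum of 20 CPM. Of the other 19, 16 were reported counts of 10 or fewer. Mature hepatocyte genes called in liver bud progenitors (4 reported) were 2 with filterByExpr, a mean minimum of 1 CPM, DESeq2, thinning and the replicate block, neural progenitor genes called there (1) were 3 with library size only and with the GC correction, and P-body proteins called there (10) were 17 and 6 with these. The median of neuronal cytoskeleton and growth, reported as 4.31, was 3.92 with library size only, 4.20 with upper quartile scaling, 4.18 with 8 libraries in a single fit, and 3.92 with the GC correction, both alone and with the replicate block. The median of epithelial junctions and keratins, reported as -5.89, was -6.27 with library size only, -6.02 with filterByExpr, with a mean minimum of 1 CPM and with 8 libraries, -6.16 with thinning to the smallest total, -6.15 with the GC correction and -6.16 with the block and the GC correction. SOX2, uncalled at 0.04, was called in liver bud progenitors at -0.35 with library size only and at -0.32 with the GC correction, with or without the block, and AGRN came to -0.27 with the GC correction, with or without the block. Of 170 genes named in the text, 159 had the same direction and the same side of the threshold under each alternative in which they were tested. Besides SOX2 and AGRN, whose direction turned, GAPDH, KIF5B and MCM7 lost their call with the GC correction or with the block and it, PTBP2 (0.21) with library size only and HHEX without liver bud library 1. ACTL6A gained a call in liver bud progenitors under several settings, at -0.77 with library size only, and PECAM1, PTPRC and NEUROD6 gained one under at least 1 setting. Beyond the construction of these settings the cause was not tested.

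Leaving out each library in turn gave 4758 to 5529 genes higher in neurons and 4526 to 5500 in liver bud progenitors, 1772 to 1952 and 1882 to 2384 with at least 4-fold differences, with the lone library assumed to vary like the other group. The median of neuronal cytoskeleton and growth ranged from 4.29 to 4.33, and the median of epithelial junctions and keratins from -6.49 to -5.83. Same-numbered libraries of the groups deviated from the group means with a correlation of -0.202 over 6571 genes, so the numbers were not taken to pair the libraries. With the replicate block 5358 and 5178 genes were called, 1826 and 2078 with at least 4-fold differences, with crossed numbers 5638 and 5387, and with the block and the GC correction 5062 and 5133. Depth limits the statements on genes under 1 normalized CPM, where few were called in either direction.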
